A study of Mus musculus with 2 samples.

Results

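The cells described here are thymic macrophages selected for transcripts of Vcam1, Spic, Slc40a1 and Mertk, the set that marks macrophages recycling iron in the spleen. A kept cell of the 2021 library was a member when it held at least 3 unique molecular identifiers (UMIs, each a tagged captured molecule) of C1qa, C1qb and C1qc together and at least 2 of Vcam1, Spic, Slc40a1 and Mertk together. It also had to hold fewer than 2 UMIs of Prg4, Alox15, Pf4 and Ecm1 and fewer than 2 of Cd209d and Cd209e. The rule found 147 members among 3188 kept cells, which is 4.61% (95% exact binomial interval 3.91 to 5.40). They made up 37.8% (33.0 to 42.8) of the 389 cells that met the C1q minimum. All intervals cover counting error only, since every member came from 1 library.

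The study profiled macrophages of the thymus of adult C57BL/6 mice. Thymus was digested with the enzymes of a spleen dissociation kit, cells bearing CD64, the Fc receptor encoded by Fcgr1, were taken by fluorescence-activated sorting, and droplet libraries of transcript 3′ ends were prepared on the 10x Chromium. Both libraries, made in 2021 and 2024, carry the same strain, tissue and cell type labels, and no treatment, genotype or time point separates them. Sex, exact age and the number of animals pooled are not given in the sources used here.

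The spleen's red pulp macrophages take up worn red cells, break down their haemoglobin and return the iron to the blood. Spi-C, encoded by Spic, is the transcription factor known to drive that programme when haem accumulates, and Slc40a1 encodes ferroportin, the exporter of iron from cells. Thymic macrophages are best known for clearing the many developing T cells that die during selection, for which Mertk, a receptor for bridged phosphatidylserine, is one of the receptors.

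The 2021 library held 3214 barcodes and 8534578 UMIs, with a median of 2157.5 UMIs per barcode. The 2024 library held 2815 barcodes with a median of 5312 UMIs, and its genes were not analysed here because no gene list was used for it. Whether the libraries share barcodes was not analysed here. Members had a median of 2716 UMIs (510 to 12696), C1q cells outside the gate 2662.5 and all other kept cells 2149. Of the 242 C1q cells outside the gate, 210 were outside only because they were low in the 4 genes, 22 held 2 or more UMIs of the Prg4 set and 10 of the Cd209 genes. The median mitochondrial share was 0.846% in members and 0.880% in C1q cells outside the gate. With 1 library behind every gene value there was no test, and levels are given as CPM, the UMIs of a gene per 1000000 UMIs summed over a set of cells, each with its 95% exact Poisson interval. A gene is called higher or lower when the log2 ratio of levels, with 10 CPM added to each, is at least 1 in size.

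The 4 genes of the gate were spread unevenly over the members, and their values describe the choice of cells, not a finding. Vcam1, an adhesion receptor for integrins, had a UMI in 141 members, with a median of 5 and a highest value of 32 UMIs per cell. Slc40a1 had a UMI in 99 members, Spic in 60 and Mertk in 53. All 4 genes were seen together in 22 members, 3 of them in 42, 2 in 56 and a single one in 27, of which 24 held Vcam1 alone. The sum over the 4 genes had a median of 7 and ran from 2 to 40. At the edge of the rule, 30 members stood at the minimum of 2 UMIs and 53 otherwise eligible C1q cells stood at 1. For C1q, 5 members stood at the minimum of 3 UMIs and 4 otherwise eligible cells at 2. Slc40a1 is the gate gene most exposed to other cells: a UMI of it was found in 19.9% of 472 neutrophil-like cells used as background, against 1.48% for Vcam1.

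**Figure D1:**
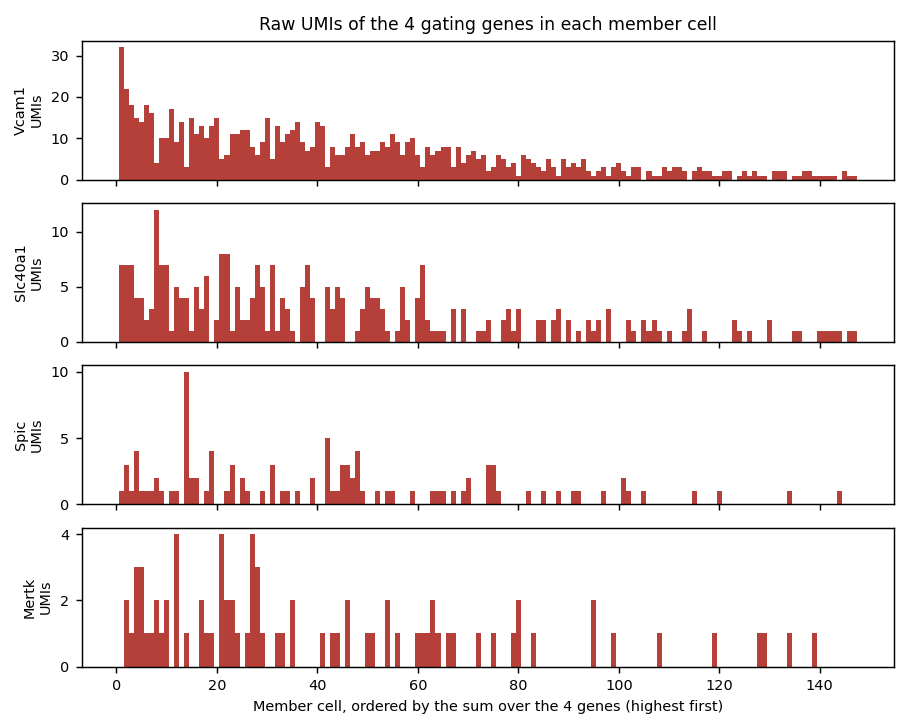
Raw UMIs (vertical axes) of Vcam1, Slc40a1, Spic and Mertk in each of the 147 member cells, ordered along the horizontal axis by the sum over the 4 genes. Vcam1 supplies most of the UMIs and reaches 32 in 1 cell, while Spic and Mertk are at 0 in most members.

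On the mm10 (GRCm38) build, with gene models of GENCODE release M21, Vcam1 lies on the minus strand of chromosome 3 (116109949 to 116129688) and Slc40a1 on the minus strand of chromosome 1 (45908068 to 45926523). Spic lies on the minus strand of chromosome 10 (88674772 to 88685015) and Mertk on the plus strand of chromosome 2 (128698956 to 128802894). The C1q genes are neighbours on chromosome 4, from the start of C1qb at 136880129 to the end of C1qa at 136898803.

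The label of macrophage held in genes that the rule did not use. The 9 further macrophage markers supplied at least 2 UMIs in 147 of 147 members and at least 5 in 140. The same minima were met by 227 and 196 C1q cells outside the gate. Summed, the 9 markers were lower in members, at 8694 CPM (8438 to 8956), than in those cells, at 9636 CPM (9419 to 9858). The 7 monocyte markers supplied at least 2 UMIs in 76 members and at least 5 in 56. Their sum was 2443 CPM (2308 to 2584) in members and 2177 CPM (2074 to 2283) in C1q cells outside the gate. Cd68, a lysosomal glycoprotein of macrophages, stood at 544 CPM (481 to 612) in members and 277 CPM (241 to 316) in C1q cells outside the gate. Fcgr1, which encodes the sorted protein CD64, was at 120 CPM (91.5 to 154) in members and 73.7 CPM (55.8 to 95.5) in C1q cells outside the gate, intervals that overlap. Csf1r, the receptor for the growth factor that macrophages depend on, was level at 318 CPM in both. The fibroblast list, the platelet list and the eosinophil and mast list had 0 UMIs in members, where a count of 0 allows up to 5.997 CPM, and of 5 erythroid markers 4 were at 0, among them Hbb-bs, Hbb-bt and Alas2. The erythroid list had 1 UMI in all 147 cells, so red cell transcripts were next to absent from them.

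Neutrophil transcripts were present, and most of their UMIs sat in few cells. The 9 neutrophil markers summed to 11243 UMIs in members, 2.25% of their UMIs, against 0.438% in C1q cells outside the gate. Of these, 10268 (91.3%) sat in 3 member cells, whose shares of UMIs in those 9 genes were 48.6%, 31.6% and 39.3%. At least 2 such UMIs were found in 55 members and 80 C1q cells outside the gate. Only 11 members held 5 or more, and 16 C1q cells outside the gate did. Among T lineage markers, 202 UMIs were found in members, and 13 members held at least 2. Results that the neutrophil-rich cells carry are given without them below.

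**Figure D2:**
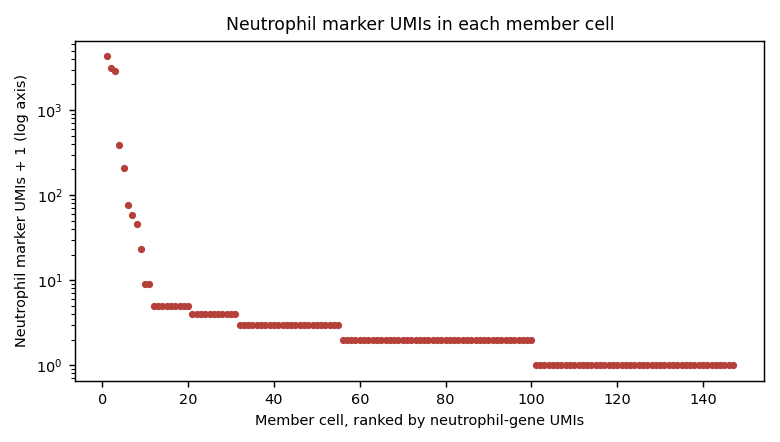
UMIs of 9 neutrophil marker genes, plus 1, on a log axis, for each of the 147 members ranked from highest to lowest. The first 3 cells hold 4306, 3088 and 2874 UMIs, and all but 11 members hold fewer than 5.

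Against C1q cells outside the gate, most genes listed for red pulp macrophages were higher in members, and a smaller part of those listed for iron and haem. Of 6036 genes compared, with the 13 gate genes left out, 312 (5.17%) were higher and 79 (1.31%) lower in members, and the median log2 ratio over all genes was 0.06. Of 20 genes listed for red pulp macrophages, 3 belong to the gate and 16 others had enough UMIs to be compared. Of these 16, 13 were higher and 0 lower, with a median log2 ratio of 1.34. The gene left out was Cd5l, a secreted protein of tissue macrophages, which leaned the other way with 2 UMIs in members and 15 outside the gate, 3.998 CPM (0.484 to 14.4) and 19.4 CPM (10.9 to 31.98). With a scaling by the median of gene ratios it entered and was called lower, which made the counts 12 higher and 1 lower of 17. The list was drawn up with earlier results of these data known.

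Itgad encodes the alpha D integrin subunit, a surface protein of splenic red pulp macrophages whose integrin can bind Vcam1. It had 54 UMIs in 42 members, 108 CPM (81.1 to 141), and 2 UMIs in 2 of the 242 C1q cells outside the gate, 2.59 CPM (0.313 to 9.34), a log2 ratio of 3.23. In any one member Itgad reached at most 3 UMIs, so the level rests on many cells. Cd163, the scavenger receptor for complexes of haemoglobin and haptoglobin, stood at 136 CPM (106 to 172) in members and 10.3 CPM (4.46 to 20.4) outside the gate, with UMIs in 38 and 6 cells. Mrc1, the mannose receptor, was at 300 CPM (254 to 352) and 50.4 CPM (35.8 to 68.9). Actn1, a crosslinker of actin filaments, was at 266 CPM (223 to 315) and 50.4 CPM (35.8 to 68.9). Axl, a receptor of the same family as Mertk, was at 526 CPM (464 to 593) and 227 CPM (195 to 264). None of these 5 pairs of intervals overlapped. The other genes called higher were Fcna, Epb41l3, Hmox1, Hpgd, Crip2, Slc11a1, Nr1h3 and Treml4, with log2 ratios between 1.04 and 1.60. Gfra2, Adgre1 (F4/80) and Dnase2a, the lysosomal nuclease that digests engulfed DNA, had log2 ratios of 0.94, 0.82 and 0.45.

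**Figure D3:**
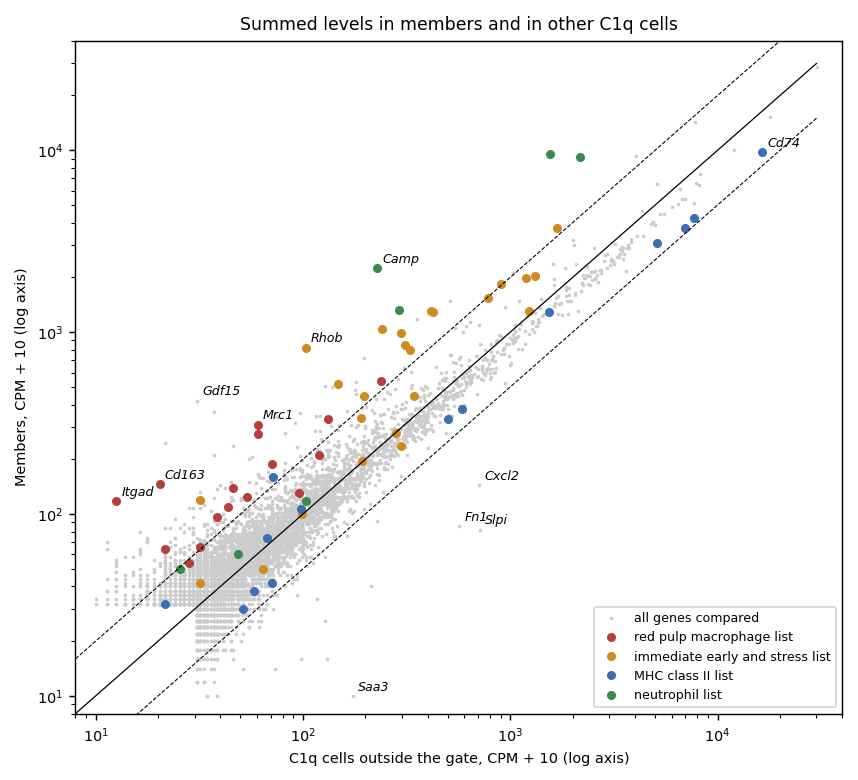
Summed level of each of 6036 genes in members (vertical) against C1q cells outside the gate (horizontal), as CPM plus 10 on log axes. The solid line marks equal levels and the dashed lines a log2 ratio of 1 in either direction. Of the red pulp list 13 of 16 genes lie above the upper dashed line, as do 12 of 24 immediate early genes, while the MHC class II genes of highest level lie between the lower dashed line and equality.

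Mrc1 and Cd163 are shown as surface genes whose log2 ratio passed 1 in each of the 20 alternatives tried, although the Cd163 intervals overlapped in cells low in immediate early genes. The 250 bases before the RefSeq start sites (GRCm38.p6) of both were searched on both strands for GAGGAA, a core bound by Spi-1 and related factors, among them Spi-C. Capitals mark a match, here read from the opposite strand as TTCCTC.
Mrc1, chr2:14229164-14229413, plus strand: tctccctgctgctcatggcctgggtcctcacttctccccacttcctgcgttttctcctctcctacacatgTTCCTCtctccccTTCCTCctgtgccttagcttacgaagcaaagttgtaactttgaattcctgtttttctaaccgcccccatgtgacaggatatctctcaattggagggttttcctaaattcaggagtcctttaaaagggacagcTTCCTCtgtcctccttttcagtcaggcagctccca
Cd163, chr6:124304401-124304650, plus strand: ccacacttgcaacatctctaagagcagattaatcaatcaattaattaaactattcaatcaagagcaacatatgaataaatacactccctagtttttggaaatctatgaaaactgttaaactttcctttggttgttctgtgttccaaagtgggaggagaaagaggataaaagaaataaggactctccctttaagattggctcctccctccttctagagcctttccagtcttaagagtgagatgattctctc
The Mrc1 window held 3 matches and the Cd163 window 0. Among 19 genes looked up, 14 had a window in the table and 3 of those held the motif, while 23.3% of all 32851 windows of the table did. The antioxidant-type motif TGACNNNGC was found in 0 of the 14 and in 10.2% of all windows. A match is a stretch of letters and was not shown to be bound in these cells.

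The iron and haem genes outside the gate were less uniform than the red pulp genes. Of 38 listed, Slc40a1 belongs to the gate, 14 had too few UMIs and 23 were compared. Of the 23, 7 were higher and 0 lower than in C1q cells outside the gate, with a median log2 ratio of 0.27 beside 0.06 over all genes. The genes called higher were Cd163 and Lrp1, which take up haem in its protein complexes, Hmox1 and Blvrb, which act in its breakdown, Trf and Slc11a1, which carry or move iron, and Lcn2.

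Hmox1, haem oxygenase 1, opens the haem ring and frees its iron. It had 89 UMIs in 57 members, 178 CPM (143 to 219), against 60.8 CPM (44.6 to 80.8) in C1q cells outside the gate and 26.1 CPM (22.7 to 29.9) in all other kept cells. Blvrb, a biliverdin reductase acting after haem oxygenase, was at 450 CPM (393 to 513), 171 CPM (143 to 202) and 55.5 CPM (50.5 to 60.9) in the same order. Trf, transferrin, the iron carrier of plasma, was at 522 CPM (460 to 589), 169 CPM (142 to 201) and 68.5 CPM (62.9 to 74.5). For these 3 genes members were highest, other C1q cells next, and no neighbouring intervals overlapped. The 22 C1q cells with Prg4 set genes were an exception for 2 of them: Trf stood at 702 CPM (534 to 905) and Hmox1 at 131 CPM (65.3 to 234) there, and both intervals overlapped those of members. Blvrb was at 226 CPM (136 to 353) in those cells. Slc11a1, which moves iron out of the phagosome, was at 86.0 CPM (62.2 to 116) in members and 28.4 CPM (17.8 to 43.1) in the other C1q cells. Lrp1, a receptor that takes up haem bound to haemopexin among many ligands, was at 250 CPM (208 to 298) and 112 CPM (90.1 to 139).

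Lcn2, which binds bacterial iron carriers and is a granule protein of neutrophils, was at 494 CPM in members and 118 CPM in the other C1q cells, but 144 of its 247 member UMIs came from 1 cell. Without cells holding 5 or more neutrophil marker UMIs it was at 9.46 CPM (2.58 to 24.2) and 16.9 CPM (8.74 to 29.5). Without those cells Hmox1 stood at 203 CPM (163 to 251) and 63.4 CPM (46.2 to 84.8), and Trf at 582 CPM (511 to 659) and 162 CPM (134 to 194).

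The storage genes did not reach the call and leaned in opposite directions, with intervals that did not overlap in the main comparison. Fth1, the heavy chain of ferritin, was at 7375 CPM (7139 to 7616) in members and 8238 CPM (8037 to 8442) in C1q cells outside the gate, a log2 ratio of -0.16. Ftl1, the light chain, was at 6491 CPM (6270 to 6718) and 5089 CPM (4931 to 5250), a log2 ratio of 0.35. Without the neutrophil-rich cells the intervals of Fth1 overlapped, at 7999 CPM (7732 to 8274) and 8470 CPM (8257 to 8687), and those of Ftl1 did not. In the C1q cells low in immediate early genes, described below, Ftl1 was level at 5013 CPM (4702 to 5339) and 5062 CPM (4859 to 5271). There the intervals of Fth1 stayed apart. Intake of transferrin-bound iron by its receptor Tfrc was scarcely measured, with 12 UMIs in members (23.99 CPM, 12.4 to 41.9) and 16.8 CPM (8.95 to 28.7) in the other C1q cells. Slc48a1, which exports haem from the phagosome, was at 48.0 CPM (30.7 to 71.4) and 64.6 CPM (48.0 to 85.2), and Flvcr1, a haem exporter, at 19.99 CPM (9.59 to 36.8) and 29.7 CPM (18.8 to 44.6). Of the copper oxidases that load exported iron onto transferrin, Heph and Hephl1 had 0 UMIs and Cp had 4 UMIs in members. Against all other kept cells, 8 of the 22 genes compared were higher, beside 9.67% of all 5977 genes, and 3 were lower, beside 2.58%. The 3 were Ltf, Lcn2 and Hp, whose products are stored in neutrophils.

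**Figure D4:**
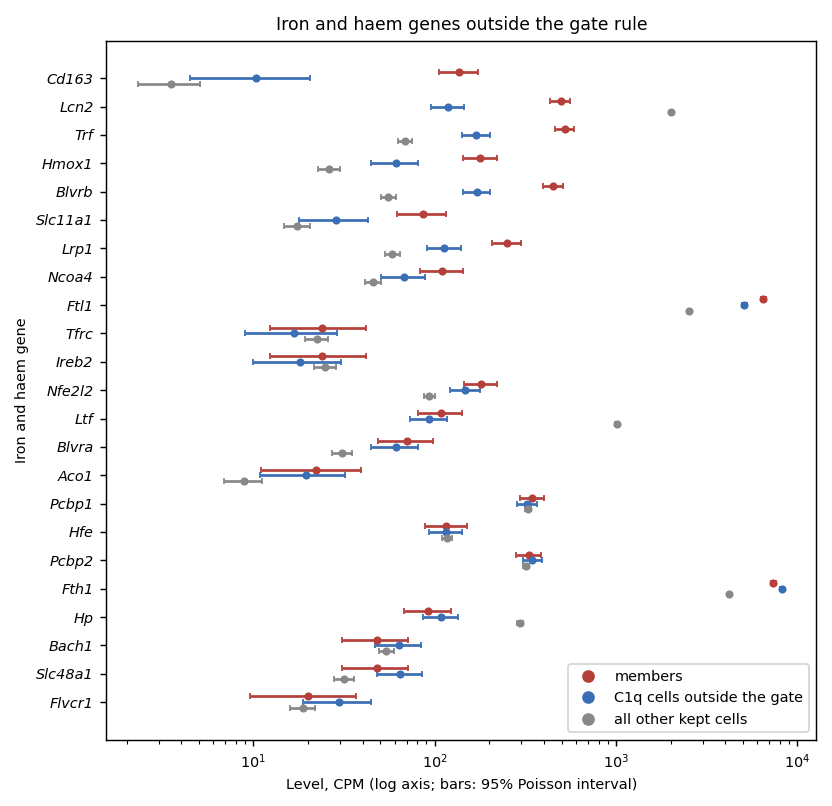
Levels (CPM, log axis) of the 23 iron and haem genes compared, in members, in C1q cells outside the gate and in all other kept cells, with 95% Poisson intervals. Cd163, Trf, Hmox1, Blvrb, Slc11a1 and Lrp1 separate members from the other C1q cells, while Fth1, Hfe, Pcbp1 and Pcbp2 lie close together on this axis.

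Within the C1q cells, the levels changed with how many UMIs of the 4 genes a cell held, and the members just inside the rule resembled the cells just outside it. The cells low in Prg4 and Cd209 genes were divided by that sum into 157 cells at 0, 53 at 1, 30 at 2, 35 at 3 to 5, 20 at 6 to 10 and 62 at 11 or more. Median depth ran from 2379.5 to 3478 UMIs over these classes and was 2379.5 in the highest. Cd163 stood at 2.16, 12.7, 19.0, 50.5, 88.0 and 269 CPM in that order. Mrc1 stood at 41.1, 38.0, 19.0, 177, 390 and 488 CPM. Hmox1 stood at 58.4, 31.7, 114, 84.2, 151 and 279 CPM. In each case the cells with 11 or more were highest, and those at 2 lay nearer to the cells at 0 or 1 than to them. The iron and haem list summed over its genes, with Fth1 and Ftl1 the bulk of it, was also highest in the cells with 11 or more, at 19536 CPM (18923 to 20163), but lowest in those at 6 to 10, at 15098 CPM (14256 to 15976). Ftl1 was at 8051 CPM in the highest class and 5060 CPM at 0, and Fth1 at 6588 and 8678 CPM.

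Maf, a transcription factor of macrophages, was at 36.8, 76.0, 28.5, 75.8, 264 and 513 CPM. MHC class II genes went the other way: summed over the list they stood at 40032, 39998 and 39095 CPM at 0, 1 and 2 UMIs, and at 25053, 23960 and 13181 CPM above. Ccr2, the receptor that brings monocytes out of bone marrow, was at 416, 279, 457, 312, 239 and 122 CPM. By these genes the members were not a uniform set. Whether they form a range or a mixture of kinds of cell was not tested. A cell's count of the 4 genes also depends on sampling at these depths, so cells near the minimum can fall on either side of it.

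**Figure D5:**
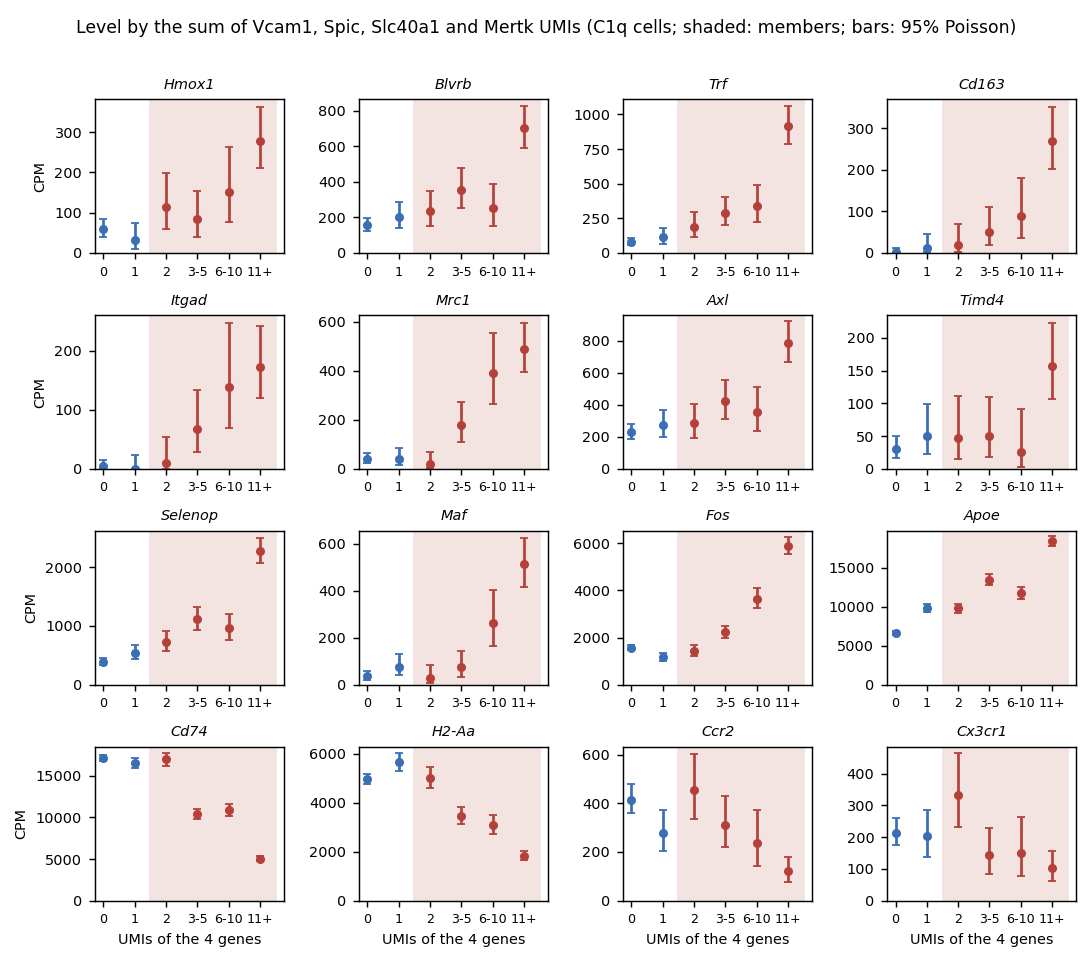
Levels (CPM, vertical) of 16 genes in C1q cells grouped by their sum of Vcam1, Spic, Slc40a1 and Mertk UMIs (horizontal), with 95% Poisson intervals. Shading marks members. Cd163, Selenop, Maf and Fos are highest at 11 or more UMIs, and Cd74, H2-Aa and Ccr2 are lowest there.

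Immediate early genes, which cells switch on within minutes of a stimulus and also during tissue digestion, were higher in the same cells. Of 24 such genes compared with C1q cells outside the gate, 12 were higher and 0 lower, with a median log2 ratio of 1.01. Fos was at 3734 CPM (3567 to 3908) and 1664 CPM (1574 to 1757), Fosb at 1034 CPM (946 to 1127) and 230 CPM (198 to 266), and Rhob, a small GTPase induced with them, at 812 CPM (735 to 895) and 93.1 CPM (72.8 to 117). Over the classes of the 4-gene sum the list ran from 9866 CPM at 0 and 8901 CPM at 1 to 32799 CPM at 11 or more.

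The comparison was therefore repeated on C1q cells whose share of UMIs in these genes was at or below the median. This choice was made after seeing the data and kept 52 of 147 members and 143 of 242 others. There 4.06% of 5880 genes were higher and 5.63% lower. The immediate early list, on which these cells were chosen, had a median log2 ratio of 0.03. Of the red pulp genes 6 of 15 were higher and 0 lower, with a median of 0.91. Of the iron and haem list 4 of 21 were higher, Cd163, Trf, Blvrb and Lcn2, and 1 lower, and Lcn2 is the gene that neutrophil-rich cells carry. Cd163 stood at 36.3 CPM (14.6 to 74.7) and 6.49 CPM (1.34 to 19.0), Itgad at 67.3 CPM (35.8 to 115) and 4.32 CPM (0.524 to 15.6), and Mrc1 at 155 CPM (105 to 222) and 41.1 CPM (24.7 to 64.2). Trf stood at 331 CPM (255 to 423) and 90.8 CPM (65.5 to 123). For Hmox1 the values were 77.7 CPM (43.5 to 128) and 47.6 CPM (29.8 to 72.0), so in those cells its intervals overlapped. The intervals of Cd163, Slc11a1 and Lrp1 overlapped too, and Hmox1, Slc11a1 and Lrp1 no longer reached the call, with log2 ratios of 0.61, 0.91 and 0.78. The immediate early list was highest in members with 11 or more UMIs of the 4 genes, so the cut can remove such members more often. Weaker differences here cannot be told apart from such a change in the members kept. What part digestion has in any of these differences was not tested.

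Of 36 transcription factor genes compared, 9 were higher and 1 lower in members than in the other C1q cells. Against the 210 C1q cells low in the 4 genes 10 were higher and 0 lower, beside 6.89% and 1.49% of all genes compared. In cells low in immediate early genes 4 of 34 were higher and 3 lower, beside 4.06% and 5.63% of all genes. Pparg, a nuclear receptor for lipid ligands, had 25 UMIs in 21 members, 49.98 CPM (32.3 to 73.8), against 6.46 CPM (2.10 to 15.1). Nr1h3, the liver X receptor alpha that splenic macrophages of the marginal zone require, was at 114 CPM (86.3 to 148) and 43.9 CPM (30.4 to 61.4). Maf was at 268 CPM (224 to 317) and 72.4 CPM (54.7 to 94.0). In the 22 C1q cells with Prg4 set genes Maf stood at 250 CPM (155 to 382), level with members, and in the 210 at 46.8 CPM (31.3 to 67.2). Id2, Klf2, Klf4, Klf6 and Atf3 were also called higher, and Klf2, Klf4, Klf6 and Atf3 also stand in the immediate early list. Id3 was called lower, at 34.0 CPM (19.8 to 54.4) and 84.0 CPM (64.8 to 107), and just missed the call against the 210 cells with a log2 ratio of -0.99. Bach1, a repressor of Hmox1 that haem inactivates, had 24 UMIs in members and a log2 ratio of -0.34, and Nfe2l2, the activator of the same genes, a log2 ratio of 0.27 with overlapping intervals.

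Of 27 genes for taking up dying cells, 5 were higher and 2 lower than in the other C1q cells, with a median log2 ratio of 0.26. Over all genes the shares were 5.17% higher and 1.31% lower. Against the 210 C1q cells low in the 4 genes 7 of 25 were higher and 0 lower, beside 6.89% and 1.49% of all genes. In cells low in immediate early genes 1 of 24 was higher, a share near the 4.06% over all genes. There 2 were lower, beside 5.63%. In the main comparison Axl, Lrp1, Itgav, Abca1 and Stab2 were higher. Stab2, a scavenger receptor that recognises phosphatidylserine, had 23 UMIs in 19 members, 46.0 CPM (29.1 to 69.0), and 2.59 CPM (0.313 to 9.34) outside. Abca1, the exporter of cholesterol, was at 224 CPM (184 to 269) and 84.0 CPM (64.8 to 107). The lower genes were Thbs1 and Cd36, which work together as bridge and receptor: Cd36 stood at 26.0 CPM (13.8 to 44.4) and 62.0 CPM (45.7 to 82.3). Neither was called lower against the 210 cells, where Cd36 was at 27.4 CPM (15.97 to 43.9) and where Thbs1, at 19.4 CPM, was too low to be compared, while Thbs1 was at 963 CPM in the 22 cells with Prg4 set genes. Mfge8, another bridge, was at 12.0 CPM (4.40 to 26.1) and 28.4 CPM (17.8 to 43.1).

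Timd4 (Tim-4), a phosphatidylserine receptor of long-lived resident macrophages, stood at 88.0 CPM (63.9 to 118) in members and 42.7 CPM (29.4 to 59.9) in the other C1q cells, a log2 ratio of 0.90. In the 22 C1q cells with Prg4 set genes it was at 107 CPM (48.9 to 203), an interval that overlaps that of members. With every cell thinned to 1000 UMIs, 10.4% (5.79 to 16.8) of 135 members had a Timd4 UMI, 3.98% (1.73 to 7.69) of 201 other C1q cells and 1.58% (0.432 to 3.998) of 253 T lineage cells used as background. Without thinning the shares were 23.8%, 11.2% and 4.04%, at median depths of 2716, 2662.5 and 1327 UMIs. Thinning left out 12, 41 and 168 cells. Cx3cr1, the fractalkine receptor, was at 168 CPM (134 to 208) in members and 237 CPM (204 to 273) in the others. Among members, 31 had a UMI of Timd4 without Cx3cr1, 40 of Cx3cr1 without Timd4, 4 of both and 72 of neither. After thinning, 15.6% (9.89 to 22.8) of members and 2.37% (0.875 to 5.09) of T lineage cells had a Cx3cr1 UMI. Genes at these levels are missed in most cells at this depth, so the counts do not show whether members differ in kind by them.

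MHC class II genes leaned lower without reaching the call. Of 14 compared, 0 were lower and 1 higher, with a median log2 ratio of -0.61. Cd74, the invariant chain, was at 9762 CPM (9490 to 10039) in members and 16382 CPM (16098 to 16670) in the other C1q cells, and H2-Ab1, a class II chain, at 3704 CPM (3538 to 3877) and 6927 CPM (6743 to 7115). Ciita, the transactivator of these genes, was at 32.0 CPM (18.3 to 51.9) and 60.8 CPM (44.6 to 80.8). The gene called higher was Cd86, a costimulatory ligand for T cells, at 150 CPM (118 to 188) and 62.0 CPM (45.7 to 82.3). With a minimum of 3 instead of 2 UMIs of the 4 genes, 4 of 14 were lower, beside 127 of all 6345 genes compared.

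Of 36 lysosomal genes, 2 were higher, a share near the 5.17% over all genes, and 0 lower, with a median log2 ratio of 0.36. With a scaling by the median of gene ratios 0 were higher. Ctsb, a cysteine protease, was at 2107 CPM (1982 to 2238) and 1016 CPM (946 to 1090), and Lgmn, an asparaginyl protease, at 626 CPM (558 to 699) and 299 CPM (261 to 340). Type I interferon response genes gave 0 higher and 0 lower of 27 compared, with a median log2 ratio of -0.11. Of 19 cell division genes, 0 were higher and 2 lower, Mki67 and Ccnb2. Mki67 had 10 UMIs in 6 members, 19.99 CPM (9.59 to 36.8), and 54.3 CPM (39.1 to 73.4) outside.

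Among the 15 genes with the largest log2 ratios against the other C1q cells was Gdf15, a circulating stress cytokine of the transforming growth factor beta family. It led the list with 205 UMIs in 46 members, 410 CPM (356 to 470), and 20.7 CPM (11.8 to 33.6) in C1q cells outside the gate, where 6 cells held its 16 UMIs. No member held more than 24 of those UMIs. After thinning, 25.2% (18.1 to 33.4) of members and 2.49% (0.813 to 5.71) of the other C1q cells had a Gdf15 UMI, and 0 of 369 neutrophil-like and 0 of 253 T lineage cells did, which allows shares of up to 0.813% and 1.19%. In the C1q cells low in immediate early genes it stood at 46.6 CPM (21.3 to 88.5) and 4.32 CPM (0.524 to 15.6). The set also held Slc1a3, a glutamate transporter, at 158 CPM (125 to 197) and 16.8 CPM (8.95 to 28.7). Slc15a2, a carrier of short peptides, had 27 UMIs in 23 members and 1 UMI outside, but 0 UMIs in both sets among cells low in immediate early genes, so no level could be compared there. Tcf7l2, a transcription factor of Wnt signalling, was at 228 CPM (188 to 274) and 36.2 CPM (24.0 to 52.3).

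Camp, Ngp, S100a9 and Wfdc21, genes abundant in neutrophils, were also among the 15. Camp stood at 2243 CPM in members and 218 CPM in the other C1q cells, with 503 of its 1122 member UMIs in 1 cell. Without the neutrophil-rich cells it was at 56.8 CPM (36.4 to 84.5) and 31.0 CPM (19.4 to 46.9), S100a9 at 154 CPM (119 to 196) and 121 CPM (96.9 to 150), and Ngp at 18.9 CPM (8.17 to 37.3) and 31.0 CPM (19.4 to 46.9). Wfdc21 had 1 UMI left in members and 0 outside. For Camp, S100a9 and Ngp the intervals of members and other C1q cells then overlapped.

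The lowest log2 ratios belonged largely to a small group of cells that the rule had set aside. Saa3, an acute phase protein, had 0 UMIs in members, 0 CPM (0 to 7.37), against 164 CPM (137 to 195) in C1q cells outside the gate. Counting 3 UMIs over the members as the limit of a count of 0, and 164 CPM without its interval, Saa3 was at least 27.4-fold lower. All 127 of its UMIs were in 7 cells. In the 210 cells low in the 4 genes, Saa3 was at 0, and in the 22 cells with Prg4 set genes it was at 1510 CPM. The like held for Slpi, an inhibitor of serine proteases, at 72.0 CPM in members, 61.3 CPM in the 210 cells and 5982 CPM in the 22. Retnla was at 3.998, 3.23 and 559 CPM, C4b at 5.997, 1.61 and 797 CPM, and Fn1, fibronectin, at 76.0, 148 and 3913 CPM.

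Cxcl2, a chemokine that attracts neutrophils, remained lower against the 210 cells, at 134 CPM (104 to 170) in members and 589 CPM in them, a log2 ratio of -2.06. It rested on few cells: 13 of 147 members and 31 of the 210 had a UMI. Of the 365 UMIs in the 210 cells, 117 were in 1 cell. Ltc4s, which makes leukotriene C4, was at 16.0 CPM (6.90 to 31.5) in members and 56.4 CPM in the 210. Ccl17, a chemokine of dendritic cells, was at 26.0 CPM (13.8 to 44.4) in members and 84.0 CPM (64.8 to 107) in all C1q cells outside. Of Golga3, 65 of the 83 UMIs outside the gate were in 1 cell.

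All other kept cells are a mixture that includes neutrophils, lymphocytes, monocytes and dendritic cells, and also the 242 C1q cells outside the gate. Against this mixture 578 of 5977 genes were higher in members and 154 lower. A scaling by the median of gene ratios lowered log2 ratios by up to 0.20, and by less for genes low in the other cells. It gave 462 higher and 226 lower, so the share of higher calls went from 79.0% to 67.2%. Gdf15 again led, at 2.87 CPM (1.82 to 4.30) in the others. Apoe, the carrier of cholesterol between cells, was at 14375 CPM (14045 to 14712) in members, with a UMI in 147 of 147, and 1183 CPM (1159 to 1207) in the others. Selenop, a plasma carrier of selenium, was at 1469 CPM (1365 to 1580) and 101 CPM (94.1 to 108), and Igf1, a growth factor, at 334 CPM (285 to 388) and 14.97 CPM (12.4 to 17.9). Slc1a3, Rhob, Apoc1, Ms4a7 and Pld3 were also among the 10 largest, with log2 ratios between 3.57 and 3.82. At the low end, Jchain, which joins immunoglobulin polymers in plasma cells, had 0 UMIs in members, 0 CPM (0 to 7.37). The others stood at 253 CPM (242 to 264). With a limit of 3 UMIs for the members, and 253 CPM without its interval, Jchain was at least 42.2-fold lower. Retnlg, Ltf, Mmp9 and Mmp8, all of neutrophils, had log2 ratios between -3.94 and -2.80. Red pulp genes were higher here in 15 of 16 cases, with Gfra2 the exception at a log2 ratio of 0.55.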

How the data were processed

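The deposited values are raw counts of UMIs, per gene and cell barcode. Per the file headers they were made with Cell Ranger 6.0.0 (2021) and 8.0.0 (2024), and per the submitters' processing notes on build mm10. The counting of intronic reads is not given in the sources used here. No barcode had fewer than 500 UMIs before any filter of this work, so barcodes had been selected. Barcodes under 300 genes, under 500 UMIs or with more than 10% of mitochondrial UMIs were dropped. UMIs were summed over the members (500230), over 242 C1q cells outside the gate (773641) and over all 3041 other kept cells (8017192), so 1 UMI is worth 1.999, 1.29 and 0.125 CPM. Free RNA can enter any droplet. For that reason thinned shares (1000 UMIs per cell) are set beside those of background cells. These are neutrophil-like cells with at least 20 UMIs of neutrophil markers and T lineage cells with at least 3 of T markers, both with 0 UMIs of C1q genes.

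Genes entered with at least 10 UMIs over both sets and 20 CPM in 1 of them. Log2 ratios used 10 CPM added to each level and understate the change of low genes. With 1 library no test was possible, and no gene was compared with spread between animals. Genes were named as the 15 highest and 10 lowest log2 ratios against C1q cells outside the gate and the 10 highest and 5 lowest against all other kept cells, at 50 CPM or more and in at least 5 cells, without ribosomal, mitochondrial, antigen receptor and unnamed gene models, and within each list described. Some genes that meet this rule are not reported here. The members and lists were chosen with earlier results of these data known. Scrublet in scanpy 1.11.5 (expected rate 6%) called 3 doublets (0.0941%), none a member, so it did not work here and no cell was removed by it, and 25 members were among the 6% of highest scores. Python 3.11.15 was used with pandas 2.3.3, scipy 1.17.1 and numpy 2.4.6, and the calculations were checked on simulated counts. Alternatives changed the gate, the depth, the cells left out, the scaling, the filter and the pseudocount.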

Additional observations from a re-analysis of the deposited data

How the results depend on the processing

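The limits are those of 1 library: no result has a replicate check, leaving out replicates could not be run, and at 1.999 CPM per UMI a gene under about 5.997 CPM in members cannot be told from 0. No paired analysis was possible because the labels give 1 group and gene values come from 1 library. The share of members, 4.61%, was 3.67% with a minimum of 3 UMIs of the 4 genes, 2.79% without Vcam1 in the gate, 3.19% in cells thinned to 1000 UMIs and 2.38% without cells holding 2 or more UMIs of other lineages. Numbers of genes called moved with many of the settings. In the order higher against C1q cells, lower against C1q cells, higher against all other cells and lower against all other cells, a pseudocount of 1 CPM gave 570, 214, 881 and 263, one of 50 CPM gave 70, 11, 184 and 39, and leaving out cells of other lineages gave 590, 246, 893 and 422. Thinning, which also cut the members to 83, gave 515, 324, 1596 and 688. Against C1q cells, higher and lower calls were 471 and 196 without Vcam1 in the gate, 508 and 176 without the 6% of highest doublet scores, and 605 and 243 with the mean of per-cell CPM. Lower calls against C1q cells were 127 at a minimum of 3 UMIs of the 4 genes, 130 at a C1q minimum of 6, 122 with no filter on low counts and 331 in cells low in immediate early genes. Lower calls against all other cells were 256 without the highest doublet scores, 373 with per-cell CPM and 292 in cells low in immediate early genes. The iron and haem median of 0.27 was 0.48 without Vcam1 in the gate and 0.46 after thinning. That median fell to 0.135 against the 210 C1q cells low in the 4 genes. It was 0.143 with a pseudocount of 50 CPM and 0.169 in cells low in immediate early genes. Of the 25 named genes, 10 passed a log2 ratio of 1 in each of 20 alternatives: Actn1, Cd163, Cxcl2, Gdf15, Itgad, Ltc4s, Mrc1, Rhob, Slc1a3 and Tcf7l2. For 7 the direction reversed: Camp (-0.13) and S100a9 (-0.15) without cells of other lineages, Ngp (-0.50) without neutrophil-rich cells, Slpi (0.20), C4b (0.46) and Retnla (0.082) against the 210 C1q cells low in the 4 genes, Slpi (1.62) in cells low in immediate early genes, and Golga3 (0.12) both after thinning and without the highest doublet scores. The cause was not tested beyond the cells each setting removes. The neutrophil-rich and immediate early settings were added after seeing the data.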

Other observations

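The genes given here stand outside the lists and were picked after their values were seen. Abcc3, an exporter of organic anions such as conjugated bilirubin, had 61 UMIs in 41 members, 122 CPM (93.3 to 157), and 22.0 CPM (12.8 to 35.2) outside. Slco2b1, an importer of organic anions, was at 60.0 CPM (40.5 to 85.6) and 7.76 CPM (2.85 to 16.9). The potassium channel genes Kcnj10 and Kcnj16 were at 84.0 CPM (60.5 to 113) and 42.0 CPM (26.0 to 64.2) in members, and at 14.2 CPM (7.10 to 25.4) and 2.59 CPM (0.313 to 9.34) outside. Each rests on fewer than 100 UMIs of 1 library.

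Among receptors, P2ry12 and P2ry13, which sense adenine nucleotides, were at 48.0 CPM (30.7 to 71.4) and 64.0 CPM (43.8 to 90.3) in members, and at 5.17 CPM (1.41 to 13.2) and 14.2 CPM (7.10 to 25.4) outside. Ccr3, a chemokine receptor known from eosinophils, had 14 UMIs in 10 members and 1 UMI outside, while the 5 eosinophil and mast cell markers had 0 UMIs in members. Cd81, a tetraspanin, was at 712 CPM (640 to 790) in members and 186 CPM (157 to 219) outside, with a UMI in 113 and 90 cells.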
